A study of Mus musculus with 24 samples.

Results

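The epidermal growth factor (EGF) family was followed as 10 genes, 7 ligands (Egf, Areg, Ereg, Tgfa, Hbegf, Btc and Nrg1) and 3 receptors (Egfr, Erbb2 and Erbb3). The members were chosen by gene name, and all 10 were found among the 35519 genes that the transcripts of 24 mouse libraries map to. The libraries came from prostate organoids and from prostate tissue of the anterior lobe, and their labels give a genotype at Brca1, whose product repairs DNA breaks by homologous recombination. Organoids labelled KO (Brca1-/-), HET (Brca1+/-) or WT (wild type) were grown without or with dihydrotestosterone (DHT), a potent androgen, in 6 groups of 3 libraries. The labels give an age of 3 months for the mice behind the organoids. Tissue labelled KO, HET or WT was sequenced directly, in 3 groups of 2 libraries with no age given. All organoids were cells of digested anterior lobes cultured in Matrigel, in a medium that itself contains EGF, Noggin, R-spondin and an inhibitor of TGF-beta receptors, among other additions. The labels name no strain, Cre driver, clone or pooling, and are silent on whether replicates stem from different mice or cultures. Spread between libraries, which may be technical, is therefore all that the p-values weigh.

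The ligands of this family are made as membrane-bound precursors, are released by metalloproteases such as ADAM17, and bind receptor tyrosine kinases on the same or neighbouring cells. EGFR binds EGF, amphiregulin (Areg), TGF-alpha (Tgfa), HB-EGF (Hbegf), betacellulin (Btc) and epiregulin (Ereg), ERBB3 binds neuregulin 1 (Nrg1), and ERBB2 has no known ligand and pairs with the other receptors. ERBB3 has an impaired kinase and, once paired, recruits phosphoinositide 3-kinase. In prostate cultures EGF is a standard supplement for epithelial growth, and in human prostate cancer cells signalling through ERBB2 and ERBB3 is known to act on the androgen receptor.

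Areg and Egf lay at the opposite ends of the organoid levels, with Areg the most abundant member and Egf the least, so their promoters are shown. Promoter entries matched 6 of the 10 members in the RefSeq-derived table of build GRCm38.p6, and the windows printed are the 250 bases before the start, 5′ to 3′. Areg lies on the plus strand at chr5:91139349-91139598 and Egf (the first of 2 entries) on the minus strand at chr3:129755323-129755572.
Areg: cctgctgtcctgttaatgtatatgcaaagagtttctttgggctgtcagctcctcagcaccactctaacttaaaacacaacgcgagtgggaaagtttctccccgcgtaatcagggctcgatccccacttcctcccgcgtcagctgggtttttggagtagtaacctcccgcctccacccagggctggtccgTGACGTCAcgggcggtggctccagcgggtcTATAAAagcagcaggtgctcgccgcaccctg
Egf: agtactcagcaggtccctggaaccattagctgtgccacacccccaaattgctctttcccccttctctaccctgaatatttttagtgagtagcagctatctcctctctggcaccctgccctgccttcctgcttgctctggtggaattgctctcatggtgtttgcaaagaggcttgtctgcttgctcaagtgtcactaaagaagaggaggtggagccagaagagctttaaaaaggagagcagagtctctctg
Capitals mark the motifs found. Areg holds TGACGTCA, the cAMP response element, 61 to 54 bases before its start, and TATAAA, the core promoter motif bound by TBP, 31 to 26 bases before it. Of all 32851 windows of this length in the table, 1.55% hold TGACGTCA on either strand and 7.59% hold TATAAA on the given strand. The AP-1 site (TGA, any base, then TCA; 6.75% of windows) and the androgen receptor motif AGAACA (16.1%), searched on both strands, have no match in either window shown, nor in those of Tgfa, Btc, Egfr and Erbb2. The windows of Areg, Tgfa, Btc, Egfr and Erbb2 are 57.2%, 69.2%, 59.6%, 60.8% and 66.0% G or C, against 50.4% for the Egf window shown.

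Several features of the libraries touch the results below. Depth ranged from 11965815 estimated reads (the library labelled WT plus DHT 1, in which Lars2 held 28.1% of reads) to 58445041. Mitochondrial genes held 10.01%, 4.17% and 2.61% of reads in the libraries labelled KO minus DHT, 9.43%, 4.54% and 2.42% in those labelled HET minus DHT and 2.87%, 3.10% and 5.06% in those labelled WT minus DHT, against 2.16% to 4.75% in the 9 libraries with DHT. The gene sum of Brca1 did not follow the labels: it was 10.3 to 13.1 CPM in KO, 17.2 to 20.2 CPM in HET and 11.2 to 14.1 CPM in WT organoids without DHT. A sum over the gene need not show a deletion of part of it, so directions by genotype below are directions between libraries so labelled. The tissue libraries labelled WT 2 and HET 1 stand apart: the 7 seminal vesicle markers summed to 178200 and 62880 TPM there, against 5.12 to 24.4 TPM in the other 4 tissue libraries. Luminal keratins and other luminal markers (7 of 7 present, 4257 to 6089 TPM in sum) and basal markers (6 of 6, 2313 to 4228 TPM) were present in organoids, whereas 6 prostate secretory markers summed to at most 8.41 TPM there, against 794.5 to 41780 TPM in tissue. Luminal progenitor markers summed to 280.3 TPM in tissue WT 2 and to 6175 to 7821 TPM in the other 5 tissue libraries.

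Areg was the leading transcript of the family in organoids and Egf was close to absent. On the TPM scale, which corrects for transcript length and so allows genes to be compared, Areg averaged 188 ± 31.0 TPM over the 18 organoid libraries (SD), with a range of 142.7 to 264 TPM. No other member reached its lowest library. Hbegf followed with 63.1 ± 6.26 TPM, Egfr with 51.6 ± 6.16 TPM and Erbb3 with 37.1 ± 7.33 TPM, and the ranges of these neighbours overlapped (50.3 to 72.9 TPM for Hbegf, 41.7 to 61.7 TPM for Egfr, 23.4 to 48.8 TPM for Erbb3). Ereg at 20.8 ± 4.96 TPM, Tgfa at 20.3 ± 2.33 TPM and Erbb2 at 20.01 ± 5.95 TPM could not be ordered beyond their spread. Btc at 11.2 ± 2.78 TPM and Nrg1 at 10.02 ± 1.95 TPM also overlapped.

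Egf was at 0.171 ± 0.107 TPM in organoids, on 238 reads in all 18 libraries together, of which the library labelled WT plus DHT 1 held 0. In that library a count of 0 allows up to 3 reads. Among the receptors Erbb4, which is no member and binds neuregulins, had 0 reads in each of the 18 organoid libraries, and 20 to 258 reads in each tissue library.

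Tgfa, Hbegf and Egfr varied least between organoid libraries, with coefficients of variation of 11.5%, 9.92% and 11.9%, against 29.8% for Erbb2 and 24.8% for Btc.

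**Figure D1:**
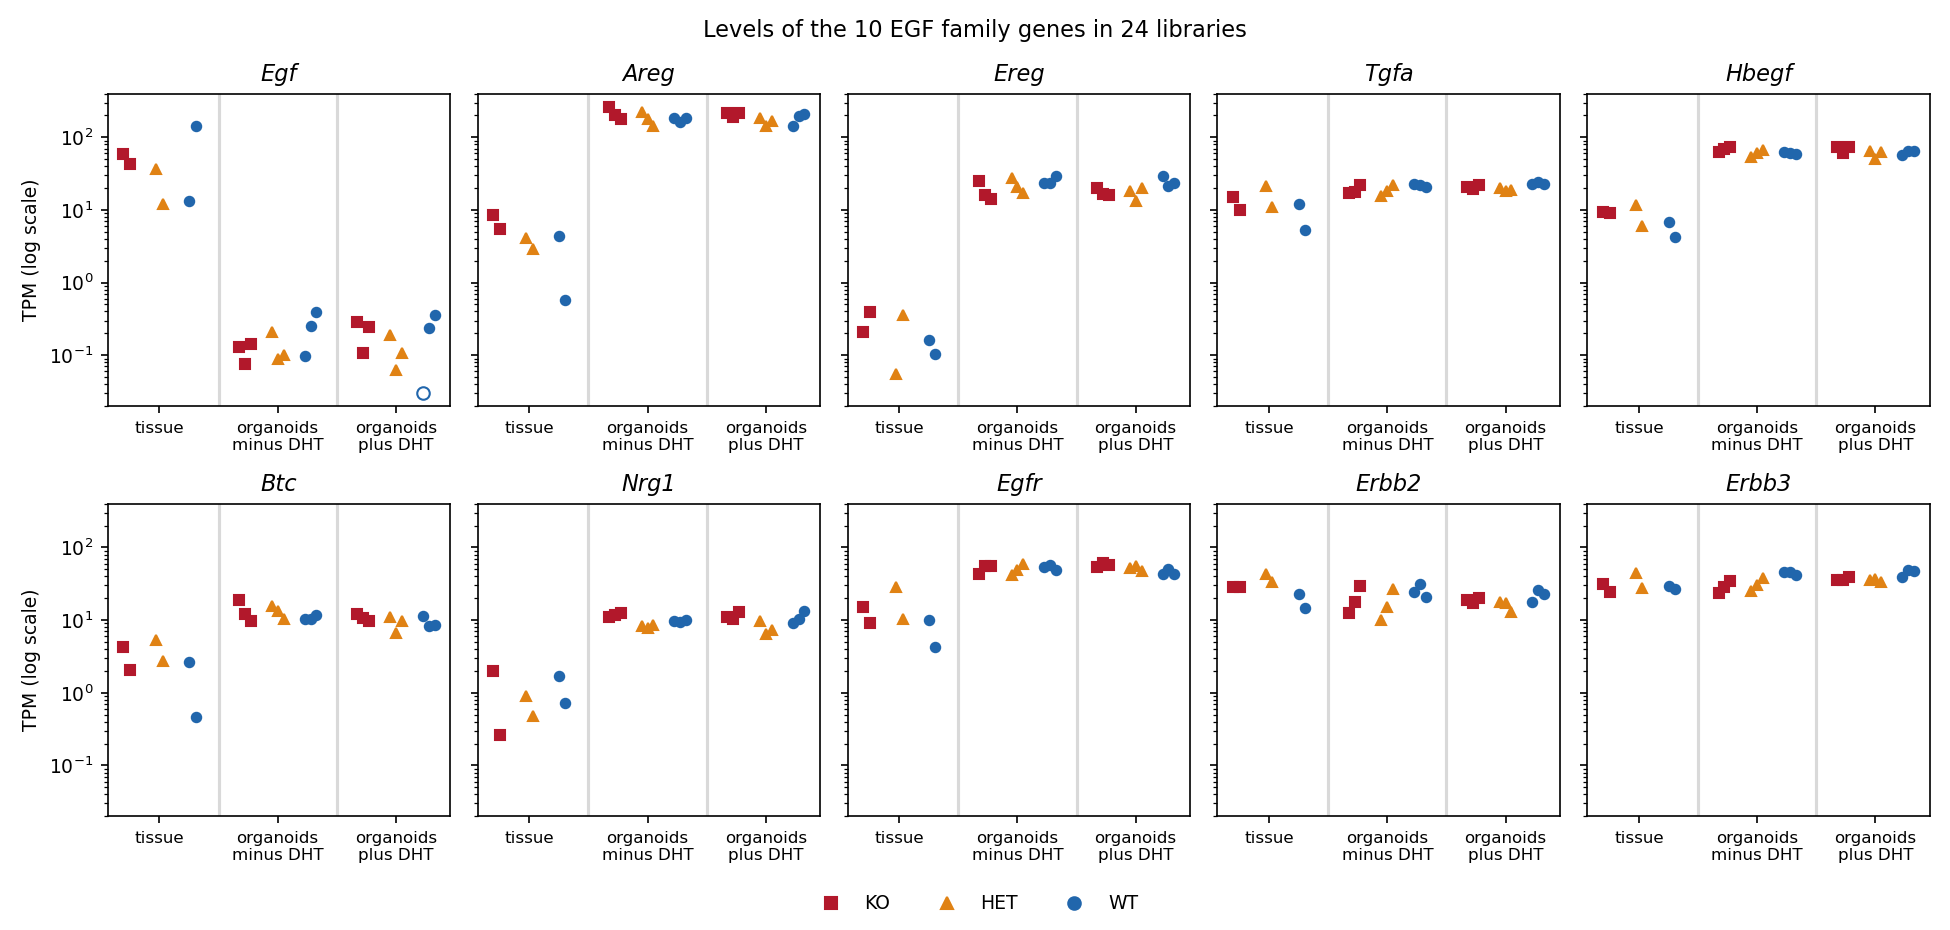
Level of each of the 10 EGF family genes in each of 24 libraries, in TPM on a log axis, with tissue, organoids minus DHT and organoids plus DHT from left to right and the genotype labels KO, HET and WT within each. Each point is 1 library, and the open circle at the foot of the Egf panel is a library at 0; Egf lies at 12.1 to 142 TPM in tissue and under 0.4 TPM in organoids, and Areg at 0.568 to 8.55 TPM in tissue and 142.7 to 264 TPM in organoids.

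In tissue Egf, the lowest ligand of organoids, was the highest by its median. Set against organoids with DHT, Egf was higher in tissue and the 6 other ligands were lower. Egf had 58.5 and 43.1 TPM in tissue labelled KO, 36.1 and 12.1 TPM in HET and 13.5 and 142 TPM in WT, against a lowest, median and highest value of 0, 0.191 and 0.360 TPM in the 9 organoid libraries with DHT. The groups did not overlap, and the library with the seminal vesicle markers at their highest, WT 2, was also the one with the most Egf. The difference was 8.42 on the log2 scale (SE 0.602, adjusted p = 1.08e-07, edgeR). Without WT 2 and HET 1 it was 7.02 (SE 0.187, adjusted p = 1.97e-11).

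Areg had a lowest, median and highest value of 0.568, 4.23 and 8.55 TPM in tissue, against 142.7, 192 and 217 TPM in organoids with DHT. Its log2 difference was -5.86 (SE 0.320, adjusted p = 1.1e-08), 57.9-fold lower in tissue. Ereg, its neighbour on chromosome 5, had 0.0545, 0.185 and 0.399 TPM in tissue and 13.1, 19.8 and 29.2 TPM in organoids with DHT, and differed by -6.80 (SE 0.355, adjusted p = 7.75e-09). Areg rested on 13 to 271 reads and Ereg on 5 to 58 reads in a tissue library. The lowest Areg value, 0.568 TPM, was that of WT 2, and without WT 2 and HET 1 the differences were -5.67 for Areg and -6.49 for Ereg.

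Hbegf had 4.27, 7.95 and 11.6 TPM in tissue, against 50.3, 63.7 and 72.8 TPM in organoids with DHT, and was 9.94-fold lower in tissue (log2 difference -3.31, SE 0.134). Nrg1, the ligand of ERBB3 and ERBB4, had 0.264, 0.812 and 1.998 TPM in tissue and 6.39, 10.3 and 13.3 TPM in organoids with DHT, a log2 difference of -4.36 (SE 0.277). For both ligands each tissue library lay below each organoid library. Btc differed by -2.17 (SE 0.312) and Tgfa by -1.09 (SE 0.152), the smallest difference among the ligands. Adjusted p-values of these 4 ligands were between 9.38e-10 and 4.48e-05 (edgeR).

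The receptors differed less than most ligands. These values are sums over all transcripts of a gene, and the transcripts of Egfr and Erbb2 are taken apart below. Egfr had 4.21, 10.2 and 28.8 TPM in tissue, against 42.9, 51.6 and 61.7 TPM in organoids with DHT, and was 3.75-fold lower (log2 difference -1.91, SE 0.222, adjusted p = 7.19e-06). Erbb3 had 24.3, 28.9 and 45.1 TPM in tissue and 33.7, 36.7 and 48.8 TPM in organoids with DHT, a log2 difference of -0.63 (SE 0.0948, adjusted p = 6.75e-05). Erbb2 was the other member higher in tissue, with 14.9, 28.3 and 43.8 TPM there against 12.8, 17.8 and 25.7 TPM in organoids with DHT, and its groups overlapped. Its log2 difference was 0.30 (SE 0.0989, adjusted p = 0.0158), and it missed the threshold without the tissue library labelled WT 1 (0.23, adjusted p = 0.061) and without KO 2 (0.27, adjusted p = 0.0546).

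All 10 members passed the test in this comparison, 2 higher and 8 lower, but 75.4% of all 17626 genes tested passed it too, 42.1% higher and 33.3% lower. The median log2 difference of the members was -2.04, beside 0.190 over all genes tested. On the TMM-scaled CPM of this fit Erbb2 alone overlapped between tissue and organoids, and on the TPM scale Tgfa, Erbb2 and Erbb3 did. The share of all genes without overlap was not computed, so this is no result about the members. In bulk samples, fewer cells of a type and less RNA per cell cannot be told apart. Markers of other cell types moved with this comparison. Smooth muscle markers summed to 242 to 2482 TPM in tissue and to at most 4.74 TPM in organoids, and stromal markers to 144.5 to 286 TPM in tissue and to at most 32.7 TPM in organoids. Basal markers went the other way, with 233 to 1851 TPM in tissue against 2313 to 3192 TPM in organoids with DHT. Leukocyte markers were also lower, with medians of 19.6 and 66.9 TPM. Luminal markers had medians of 9105 TPM in tissue and 5192 TPM in organoids with DHT, and luminal progenitor markers 7390 and 3872 TPM. Tissue WT 2, at 3580 and 280.3 TPM, lay below the organoids on both luminal lists. The part of these cell types in the differences was not tested.

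Other genes of the pathway, upstream and downstream of the receptors, were mostly lower in tissue as well. Of 60 such genes listed by role, 59 could be tested here, and 4 were higher and 49 lower in tissue (median log2 difference -1.02), where 42.1% of all genes were higher and 33.3% lower. All 16 transcriptional targets and feedback genes were lower, with a median of -2.46. Etv4, an ETS factor induced by ERK signalling, differed by -5.12 (SE 0.148), Emp1, an epithelial membrane protein, by -3.98 (SE 0.208) and Egr1, an immediate early factor, by -2.05 (SE 0.117). Of 15 receptor inhibitors 14 were lower, among them Cblb (an E3 ubiquitin ligase, -1.85), Spry4 (an inhibitor of ERK signalling, -1.69) and Lrig1 (which promotes receptor degradation, -2.50). Of 8 genes of ligand shedding 5 were lower, among them Rhbdf1, a partner of ADAM17 (-1.24), and Adam17 itself (-0.96), and 1 was higher (Adam15, 1.22). Of 16 adaptors 12 were lower, with Nck1 at -1.96 and Pik3ca, a catalytic subunit of phosphoinositide 3-kinase, at -1.001, and 1 was higher (Gab2, 1.19). Among the other ligands Epgn (epigen) differed by -5.84 (SE 0.224) and Nrg2 by -2.11 (SE 0.261), while Nrg4 was higher in tissue by 4.38 (SE 0.560). Adjusted p-values of the genes named here were at most 8.33e-05 (edgeR).

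**Figure D2:**
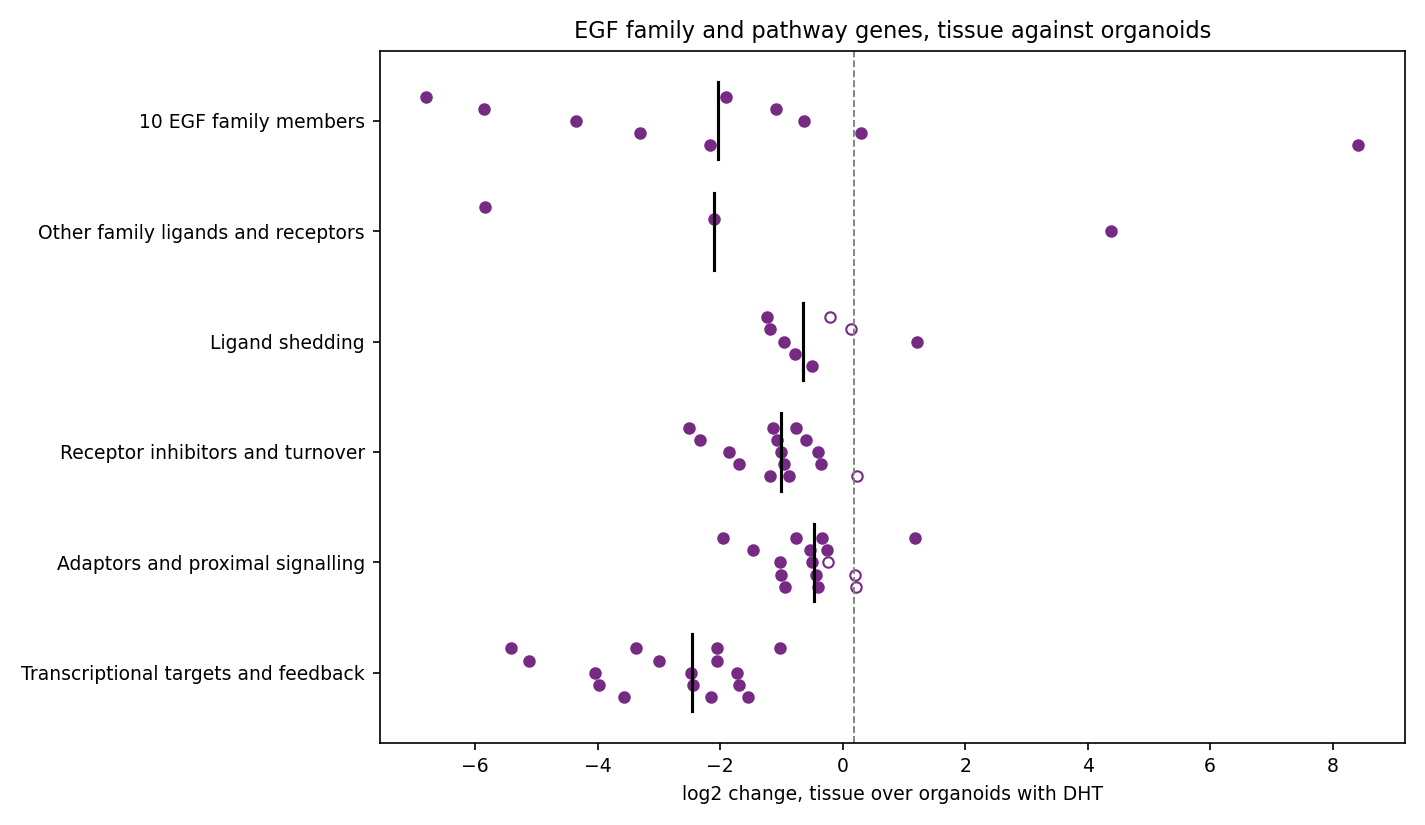
Log2 difference of each gene between tissue and organoids with DHT (positive: higher in tissue), for the 10 members and the 5 pathway lists; filled points passed the edgeR threshold, open points did not, black bars are list medians and the dashed line is the median of all genes, 0.190. Erbb4, with 0 organoid reads, is not drawn; the members span -6.80 to 8.42, and all 16 targets lie below 0.

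Few members passed the test on DHT withdrawal. No member passed the test within a single genotype label by edgeR, where 0.557% of all genes passed in organoids labelled KO, 0.707% in HET and 1.3% in WT. At an unadjusted p under 0.05 there were 1, 1 and 2 members in KO, HET and WT, where 7.03%, 8.39% and 8.07% of all genes had one. DESeq2 called 1, 0 and 0 members, where it called 1.82%, 1.92% and 2.57% of the genes it gave an adjusted p. Averaged over the 3 labels, 1 of 10 members passed (Erbb3, lower), where 4.96% of all genes did, and the median log2 change of the members was -0.01, beside 0.0212 over all genes.

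That member, Erbb3, had 107.8, 125 and 138 CPM in KO organoids without DHT, against 147, 156 and 161 CPM with DHT. In HET it had 122, 133 and 153 CPM without DHT and 158, 171 and 156 CPM with DHT. In WT it had 192, 185 and 176 CPM without DHT and 188, 209 and 208 CPM with DHT. The libraries without DHT lay below those with DHT in KO and in HET, and overlapped in WT. The averaged log2 change was -0.23 (SE 0.0583, adjusted p = 0.0275), 1.18-fold lower, with -0.32 (SE 0.101, adjusted p = 0.284) in KO, -0.25 (SE 0.101, adjusted p = 0.499) in HET and -0.13 (SE 0.101, adjusted p = 0.983) in WT. The call was lost in 9 of 18 fits that left out 1 library (adjusted p up to 0.0694), those without WT minus DHT 2 or 3, HET minus DHT 1 or 2, WT plus DHT 2 or 3, HET plus DHT 2 and KO plus DHT 2 or 3. It was also lost without the low-count filter (0.0763) and with an offset for transcript length (0.0568). In KO and HET without DHT, Erbb3 was lowest in the library with the highest mitochondrial share and highest in that with the lowest, and with this share as a covariate the averaged change was -0.16 (adjusted p = 0.00615).

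The ligands gave no call on withdrawal. Btc had the largest averaged change, 0.34 (SE 0.151, adjusted p = 0.274), with 39.0, 23.7 and 18.1 CPM in KO organoids without DHT and 23.3, 20.8 and 18.5 CPM with DHT. The groups overlapped in all 3 labels, and the highest library, KO minus DHT 1, was also that with the highest mitochondrial share. Tgfa averaged -0.12 (SE 0.0448, adjusted p = 0.164). Its WT libraries had 70.4, 64.8 and 62.9 CPM without DHT and 77.9, 76.6 and 72.7 CPM with DHT and did not overlap, while those of KO and HET did. Nrg1 likewise had 20.2, 19.3 and 20.1 CPM in WT without DHT, below the 23.5, 21.6 and 27.8 CPM with DHT, at -0.29 (SE 0.134, adjusted p = 0.597). Areg, Hbegf, Egfr and Erbb2 had averaged changes of 0.02, -0.04, 0.07 and 0.06, and 2 standard errors about them reached from -0.226 to 0.259 for Areg and from -0.0462 to 0.182 for Egfr. Egf, at well under 1 CPM, could not be resolved: its averaged change was -0.11 with an SE of 0.287.

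The 3 differences between withdrawal responses (KO against WT, HET against WT, KO against HET) gave no call for any member, nor for any of the 15427 genes tested (0.0%). At an unadjusted p under 0.05 there were 0, 1 and 0 members, where 2.7%, 2.81% and 0.979% of all genes had one. DESeq2 called 0 members in each, and 0.039%, 0.039% and 0.00649% of genes. The largest difference among the members other than Egf was that of Nrg1 between HET and WT, 0.44 on the log2 scale.

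Of the 60 pathway genes 58 were tested in organoids. On averaged withdrawal 5 were higher and 1 lower, where 2.56% of all genes were higher and 2.4% lower, and in each single label none passed. The 5 were Etv5, an ETS factor (0.40, SE 0.0686, adjusted p = 0.00188), Socs5 (0.19), Spry1 (0.29), Ccnd1, which encodes cyclin D1 (0.19) and Dusp6, a phosphatase of ERK (0.27), and Ptprj, a receptor phosphatase, was lower (-0.22). Etv5 had means of 27.6, 29.5 and 38.2 CPM in KO, HET and WT organoids without DHT, against 20.7, 22.6 and 28.7 CPM with DHT.

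**Figure D3:**
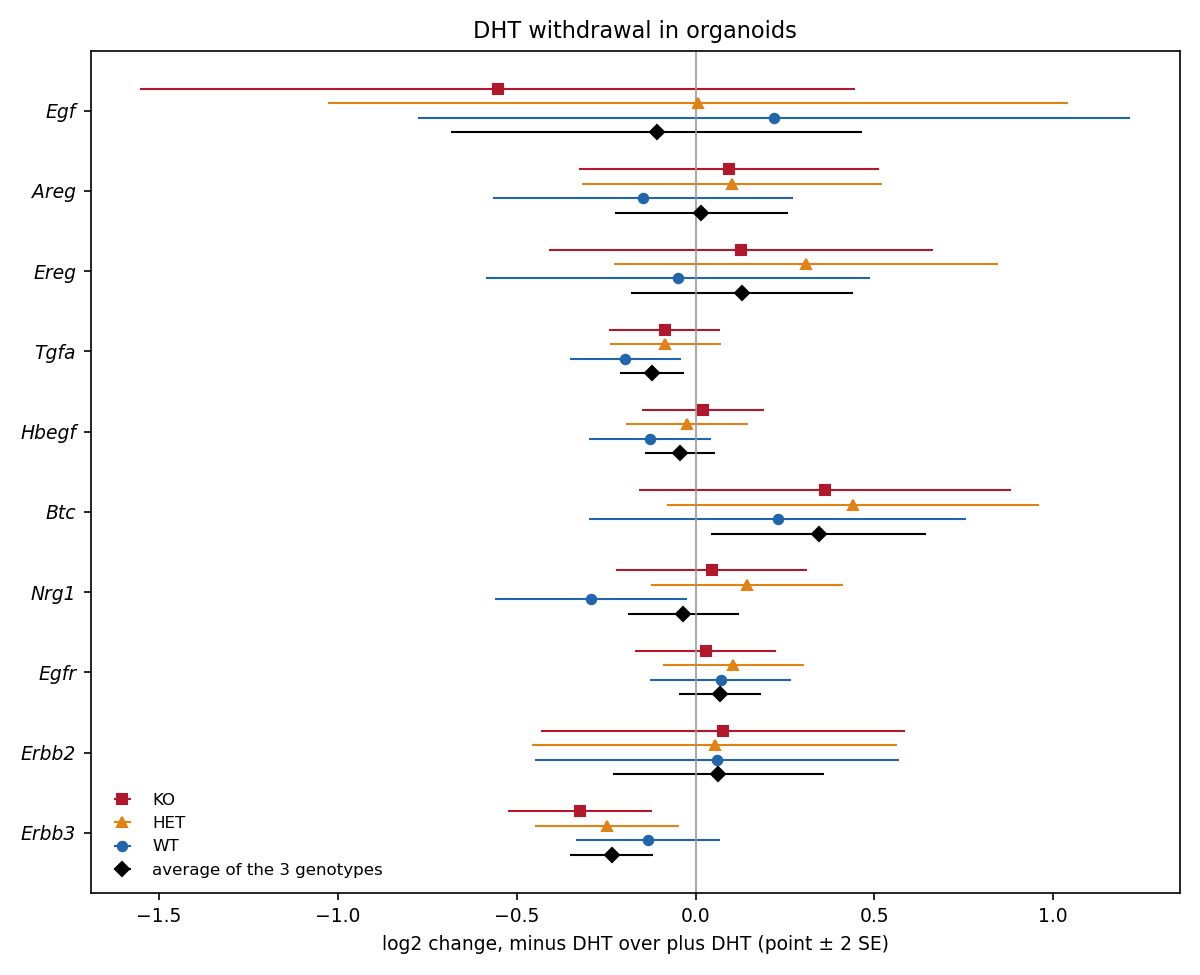
Log2 change on DHT withdrawal (minus DHT over plus DHT) for each member, with the KO, HET and WT labels and their average from top to bottom in each row; points are edgeR estimates and bars are 2 standard errors. The average for Erbb3 (-0.23) passed the threshold, and Egf has the widest bars.

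Between genotype labels, Erbb3 was the member that was called most often, and always lower than in WT. In organoids with DHT its libraries labelled KO (147 to 161 CPM) and HET (156 to 171 CPM) lay below those labelled WT (188 to 209 CPM). Without DHT the same held for KO (107.8 to 138 CPM) and HET (122 to 153 CPM) against WT (176 to 192 CPM). KO against WT gave -0.38 with DHT (SE 0.101, adjusted p = 0.0432) and -0.57 without DHT (SE 0.101, adjusted p = 0.00279), which is 1.3-fold and 1.49-fold lower. HET against WT gave -0.43 without DHT (SE 0.101, adjusted p = 0.0126) and, with DHT, -0.32 (SE 0.101, adjusted p = 0.0706), which missed the threshold. KO against HET gave -0.06 with DHT and -0.14 without, neither called in the fit of 18 libraries. Mitochondrial shares with DHT were 3.02% to 4.75% in KO, 2.22% to 4.58% in HET and 2.16% to 2.70% in WT.

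The call of Erbb3 in KO against WT without DHT held in all 6 fits that left out 1 library of the 2 groups (adjusted p 0.00205 to 0.0202). It was lost when the 6 libraries were fitted alone (adjusted p = 0.109), and the estimate then was -0.56. KO against WT with DHT was called in 1 of 6 such fits, that without WT plus DHT 1 (adjusted p 0.0472, and 0.0935 to 0.185 in the others), and missed the threshold without the low-count filter (0.129). HET against WT without DHT was called in 3 of 6 and was lost without WT minus DHT 1 (0.0625), HET minus DHT 1 (0.0639) or HET minus DHT 2 (0.055), and with its 6 libraries alone (0.144). With the mitochondrial share as a covariate Erbb3 was called in all 4 comparisons of KO or HET with WT, with log2 changes of -0.32 and -0.49 (KO, with and without DHT) and -0.29 and -0.36 (HET).

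Among the ligands Nrg1 was called once. With DHT it had 19.8, 12.9 and 16.8 CPM in HET, against 23.5, 21.6 and 27.8 CPM in WT, with no overlap. The log2 change was -0.56 (SE 0.135, adjusted p = 0.0176), 1.48-fold lower. It was lost without WT plus DHT 3 (adjusted p = 0.107), HET plus DHT 2 (0.077) or HET plus DHT 3 (0.0547), when the 6 libraries were fitted alone (0.0852) and with a length offset (0.0916). KO libraries with DHT had 22.1, 21.6 and 24.1 CPM, all above the HET libraries, and KO against HET gave 0.46 (SE 0.134, adjusted p = 0.0827), which missed the threshold but passed it without HET plus DHT 1 (0.61, adjusted p = 0.0329). Without DHT Nrg1 had 22.7, 24.2 and 23.1 CPM in KO, 20.2, 17.7 and 16.9 CPM in HET and 20.2, 19.3 and 20.1 CPM in WT. The KO libraries had the 3 highest values, at 0.36 against HET (SE 0.134, adjusted p = 0.234).

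Tgfa with DHT had 63.3, 61.9 and 66.9 CPM in KO and 64.7, 62.4 and 63.7 CPM in HET, against 77.9, 76.6 and 72.7 CPM in WT. The WT libraries had the 3 highest values, but neither KO against WT (-0.24, SE 0.0778, adjusted p = 0.113) nor HET against WT (-0.25, SE 0.0778, adjusted p = 0.0663) passed. Hbegf without DHT had 111.4, 113 and 107.7 CPM in KO, against 99.4, 92.6 and 90.9 CPM in WT. Its groups did not overlap, and the difference of 0.23 (SE 0.0853, adjusted p = 0.174) missed the threshold.

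In numbers, with DHT 1 of 10 members passed in KO against WT (Erbb3) and 1 in HET against WT (Nrg1), where 4.11% and 7.51% of all genes passed (2.53% higher and 1.58% lower in KO, 4.03% higher and 3.47% lower in HET). Without DHT 1 passed in KO against WT and 1 in HET against WT, Erbb3 both times, where 4.8% and 7.81% of all genes did (2.83% higher and 1.98% lower in KO, 4.52% higher and 3.29% lower in HET). KO against HET gave 0 members by edgeR in both media, where 3.54% of all genes passed with DHT (1.79% higher, 1.75% lower) and 2.92% without (1.35% higher, 1.56% lower). At an unadjusted p under 0.05 there was 1 member in each medium, where 14.1% of all genes had one with DHT and 12% without. DESeq2 called 1 member with DHT (Nrg1), where it called 6.71% of genes, and 0 without, where it called 5.19%. The HET and KO comparisons share their WT libraries.

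The libraries without DHT labelled KO and HET move together by number, with correlations of their deviations of 0.613, 0.231 and 0.691 for replicates 1, 2 and 3. Fitted as pairs on these 6 libraries alone, an alternative chosen after seeing the data, KO against HET gave 6 called members, 4 higher and 2 lower, where 18.6% of the 14588 genes tested passed (8.75% higher and 9.89% lower). Nrg1 (0.37, SE 0.0779, adjusted p = 0.0136), Areg (0.20, adjusted p = 0.0146), Hbegf (0.15, adjusted p = 0.0254) and Erbb2 (0.15, adjusted p = 0.0466) were higher in KO. Ereg (-0.28, adjusted p = 0.00453) and Erbb3 (-0.14, adjusted p = 0.0422) were lower. Areg had 221, 157 and 126 CPM in KO, against 193, 144 and 103 CPM in HET, higher in 3 of 3 pairs. Ereg had 77.4, 47.2 and 38.0 CPM in KO and 89.7, 61.6 and 45.4 CPM in HET, lower in 3 of 3 pairs. In each label replicate 1 had the highest mitochondrial share and replicate 3 the lowest.

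Ereg had negative log2 changes in each of the 4 comparisons with WT, at -0.58 and -0.40 in KO (with and without DHT) and -0.49 and -0.13 in HET, with no call (adjusted p 0.369 to 0.856). With the mitochondrial share as a covariate all 4 passed, at -0.78 and -0.73 in KO and -0.59 and -0.43 in HET (adjusted p 0.000265 to 0.0174), in fits where 8.95% and 10.7% (KO) and 17.7% and 14.8% (HET) of all genes passed. With DHT it had 54.8, 49.1 and 44.5 CPM in KO, 55.0, 41.3 and 62.3 CPM in HET and 93.5, 61.1 and 68.5 CPM in WT. The highest of these was in the library labelled WT plus DHT 1, the one with the fewest reads.

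**Figure D4:**
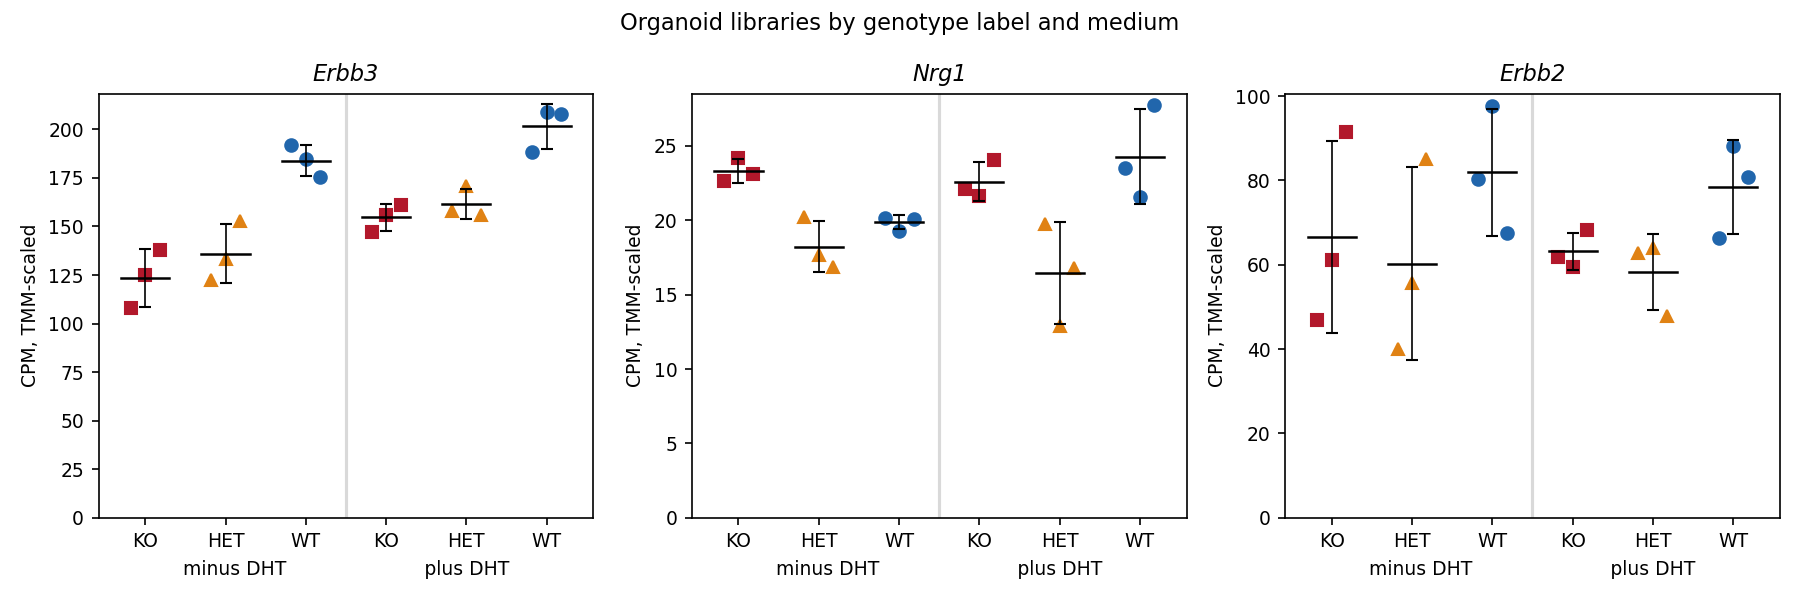
TMM-scaled CPM of Erbb3, Nrg1 and Erbb2 in the 18 organoid libraries, by genotype label (KO, HET, WT) within minus DHT and plus DHT; points are libraries, bars the mean and SD of 3. For Erbb3 every KO and HET library lies below every WT library of the same medium, and for Erbb2 the KO and HET libraries minus DHT spread from 40.1 to 91.5 CPM.

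Spry4, a feedback inhibitor, was higher than in WT in all 4 comparisons, with log2 changes of 0.74 and 0.85 in KO (with and without DHT) and 1.04 and 1.05 in HET, and adjusted p-values between 5.62e-05 and 0.00218. It averaged 7.32 ± 0.899 CPM in KO, 8.997 ± 1.02 CPM in HET and 4.38 ± 0.166 CPM in WT organoids with DHT (SD, n = 3 each). Etv5 was lower in KO than in WT, at -0.47 with DHT (adjusted p = 0.0345) and -0.46 without DHT (adjusted p = 0.0331). By edgeR, Myc was lower in HET than in WT with DHT (-0.38, adjusted p = 0.021). Ccnd1 was higher in KO than in WT without DHT (0.36, adjusted p = 0.0241). Adam12, a metalloprotease, was lower in HET than in WT with DHT (-1.02, SE 0.245, adjusted p = 0.0176) and higher in KO than in HET (1.11, adjusted p = 0.0152). Its level was low, with means of 2.27, 1.05 and 2.18 CPM in KO, HET and WT organoids with DHT. Gab2, an adaptor of phosphoinositide 3-kinase, was higher than in WT without DHT (0.53 in KO, adjusted p = 0.0405, and 0.60 in HET, adjusted p = 0.0135). Pik3r1, from the same list, was lower in HET than in WT by edgeR with DHT (-0.52, adjusted p = 0.0475) and without (-0.56, adjusted p = 0.0324). Spry2 and Errfi1 were called higher in HET than in WT in both media, with 0.56 for Spry2 with DHT and 0.39 for Errfi1 without. Errfi1 was lower in KO than in HET without DHT (-0.47, adjusted p = 0.01175). Over the 58 genes with DHT, 1 was higher and 1 lower in KO against WT, where 2.53% and 1.58% of all genes were, and 3 and 4 in HET against WT, where 4.03% and 3.47% were. Without DHT, 3 and 1 were higher and lower in KO against WT (2.83% and 1.98% of all genes) and 4 and 2 in HET against WT (4.52% and 3.29%). KO against HET gave 2 and 1 with DHT (1.79% and 1.75%) and 1 and 1 without (1.35% and 1.56%). These counts are small and most are near the shares over all genes, so they are no result about the list. Socs5, of a family of cytokine signalling suppressors, was higher in KO than in HET in both media (0.43, adjusted p = 0.00607, and 0.46, adjusted p = 0.00419), with 67.9 ± 3.57 CPM in KO, 49.4 ± 1.34 CPM in HET and 62.5 ± 1.18 CPM in WT without DHT (SD, n = 3 each). Against WT, Socs5 was called lower in HET by edgeR with DHT (-0.29, adjusted p = 0.0372) and without (-0.34, adjusted p = 0.0131). KO against WT was not called in either medium (0.14 with DHT and 0.12 without).

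In tissue no member passed the edgeR test between genotype labels, nor did any of 16753 genes (0.0%), with 2 libraries a group. At an unadjusted p under 0.05 there were 0 members in KO against WT, 1 in HET against WT and 0 in KO against HET, where 1.92%, 2.73% and 0.579% of all genes had one. DESeq2 called 0 members in each, and 0.149%, 0.0597% and 0.0597% of genes. Egf spread widely within the WT label, with 13.5 and 142 TPM. KO against WT gave -1.05 for Egf (SE 1.16) with all 6 libraries. Without WT 2 and HET 1, the libraries with the seminal vesicle markers, it was 1.98 (SE 0.357) and KO against HET 2.18. That fit has 1 library left in WT and in HET that is assumed to vary like the others. Areg showed 8.55 and 5.41 TPM in KO, 4.13 and 2.86 TPM in HET and 4.32 and 0.568 TPM in WT, where both KO libraries lay above the rest, at a log2 change of 1.45 against WT (adjusted p = 1).

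All members but Areg, Ereg and Erbb3 have more than 1 annotated transcript, and Egfr and Erbb2 are shown in detail. GENCODE release 21 lists 5 transcripts for Egfr (chr11:16752203-16918158, plus strand, GRCm38) and 3 for Erbb2 (chr11:98412470-98437716, plus strand), while Areg, Ereg and Erbb3 have 1 each. It lists 18 for Nrg1, 9 for Egf, 4 each for Tgfa and Btc and 3 for Hbegf. Nrg1-214, annotated for nonsense-mediated decay, held 31.4% of Nrg1 TPM in organoids with DHT on average. In tissue Nrg1-209, of 285 bases and without a coding sequence, averaged 0.568 TPM on 2.11 reads, of a mean Nrg1 sum of 1.008 TPM. Egfr-201 encodes the full receptor of 1210 codons. Egfr-202 shares its first 15 coding exons. Both transcripts then enter exon 16 at the same base, where the coding part of Egfr-201 is chr11:16887141-16887185 and that of Egfr-202 runs on past this end, over chr11:16887141-16887225. The first 1926 coding bases are identical, and Egfr-202 has 655 codons in all, so that it lacks the coding sequence of the transmembrane and kinase parts. The sequences are shown because the 2 products part just before the membrane-spanning segment, which the capitals of Egfr-201 encode. They show where the 2 coding sequences part: lower case marks the last 45 identical bases and capitals what follows in each transcript, up to the stop for Egfr-202 and for a first stretch in Egfr-201.
Egfr-201: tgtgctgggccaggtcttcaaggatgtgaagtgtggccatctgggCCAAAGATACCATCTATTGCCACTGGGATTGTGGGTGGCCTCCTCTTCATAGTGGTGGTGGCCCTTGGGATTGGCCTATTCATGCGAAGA
Egfr-202: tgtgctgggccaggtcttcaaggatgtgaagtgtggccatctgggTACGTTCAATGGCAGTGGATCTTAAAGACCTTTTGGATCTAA
By the authors' Salmon estimates, Egfr-202 held 40.1% ± 7.74 of Egfr TPM in tissue (SD, n = 6), against 56.3% ± 6.18 in organoids with DHT (n = 9). In organoids with DHT its libraries held 52.6% to 58.5% in KO, 61.9% to 64.1% in HET and 44.6% to 56.9% in WT. In those without DHT they held 36.4% to 55.6% in KO, 48.4% to 58.2% in HET and 47.2% to 55.6% in WT, and the lowest share, 36.4%, was in KO minus DHT 1, which had the highest mitochondrial share. These transcripts were chosen after their values were seen, so no test is given, and the split of reads shared by both transcripts is an estimate. The long Egfr-201 still took more estimated reads per library, 2038 against 366 for Egfr-202 in tissue and 4804 against 2473 in organoids with DHT on average. On the TPM scale Egfr-201 alone averaged 7.44 TPM in tissue, against 16.4 TPM in organoids with DHT, where Erbb3 averaged 39.2 TPM.

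Erbb2-202 is annotated as a processed transcript without a coding sequence. It held 7.30% ± 7.03 of Erbb2 TPM in tissue (n = 6), against 30.3% ± 6.52 in organoids with DHT (n = 9). In organoids without DHT the share was 4.18%, 25.9% and 47.7% in KO, 0%, 9.48% and 38.6% in HET and 29.5%, 33.3% and 13.1% in WT. In all 3 labels it was lowest in the library with the highest mitochondrial share. The coding transcript Erbb2-201 alone had 11.8, 13.04 and 15.5 TPM in KO, 9.97, 13.9 and 16.7 TPM in HET and 16.8, 20.5 and 17.1 TPM in WT without DHT. On this transcript the spread within KO and HET was smaller than on the gene sum, which was 12.3, 17.6 and 29.96 TPM in KO and 9.97, 15.4 and 27.2 TPM in HET. Between materials, Erbb2-201 averaged 25.9 TPM in tissue, against 13.3 TPM in organoids with DHT.

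**Figure D5:**
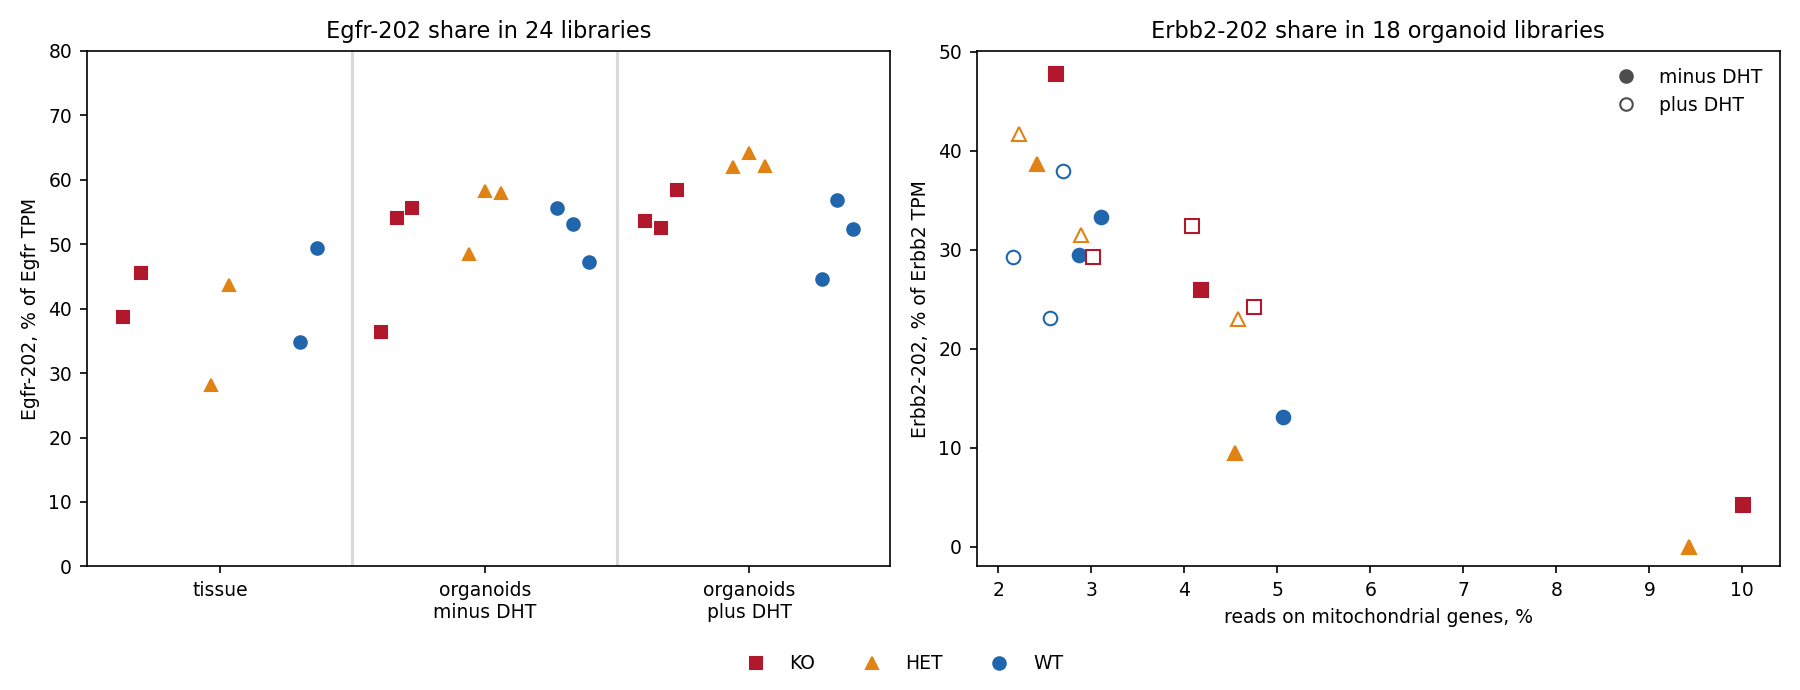
Left, share of Egfr TPM held by Egfr-202 in each library, in percent, for tissue, organoids minus DHT and organoids plus DHT, with KO, HET and WT labels; right, share of Erbb2 TPM held by Erbb2-202 against the share of reads on mitochondrial genes, both in percent, in the 18 organoid libraries (filled: minus DHT, open: plus DHT). Egfr-202 averages 40.1% in tissue and 56.3% in organoids with DHT, and the 2 libraries with over 9% mitochondrial reads have the lowest Erbb2-202 shares, 0% and 4.18%.

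Some members moved in opposite directions across organoid libraries. Across the 18 libraries, which also differ in depth, mitochondrial share, genotype label and medium, Pearson's r of log2 CPM was 0.837 between Erbb3 and Tgfa, 0.647 between Erbb3 and Erbb2 and -0.750 between Erbb3 and Btc. It was -0.719 between Erbb2 and Btc, 0.708 between Egfr and Btc, 0.665 between Btc and Areg and -0.639 between Erbb2 and Areg. Among the weaker pairs were Tgfa with Areg (-0.319) and with Egfr (-0.265), and Ereg with Erbb3 (0.0994) and with Tgfa (0.167). With the mitochondrial share, r was 0.905 for Btc, 0.754 for Areg, 0.663 for Egfr and 0.504 for Ereg, against -0.774 for Erbb2, -0.727 for Erbb3 and -0.623 for Tgfa. Hbegf (0.156) and Nrg1 (0.0905) followed this share least. These are descriptions over libraries of 6 groups, and the part of the mitochondrial share in them was not tested.

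By the same measure over 18 libraries, the genes whose pattern was most like that of Erbb3 were Sprr2a2 (r = 0.972), Sema4d (0.962) and Sel1l3 (0.957). For Erbb2 they were Tlnrd1 (0.975), Fam83h (0.971) and Ddx39b (0.971), and for Btc Map4k5 (0.968), Pds5b (0.959) and Nop58 (0.946). Areg was most like Sf3b6 (0.929), Zmat2 (0.922) and Dnajc8 (0.917), Ereg like Aim2 (0.933), Armcx3 (0.926) and Crebbp (0.924), and Egfr like Zfp738 (0.929) and Mmd (0.921). Tgfa was most like Sult2b1 (0.937), Plekhh1 (0.923) and Tmprss4 (0.895). The highest values for Hbegf (Ptk2, Capn2 and Gcnt2), Nrg1 (Cdkl2, Myom3 and Cttnbp2nl) and Egf (Socs7, Rpl17-ps8 and Lypd5) were lower, between 0.802 and 0.877.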

How the data were processed

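RNA of 18 organoid and 6 tissue libraries was sequenced. For each transcript the deposited files hold expected counts, TPM and an effective length, as the headers name them. Per the submitters' processing notes, the authors' expected counts and TPM come from Salmon 0.13.1. The notes name the build hg38, but the transcript identifiers are mouse Ensembl identifiers and were read as such. Strandedness, trimming and the index are not given in the sources used here, so antisense overlaps cannot be told apart.

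Expected counts and TPM were summed per gene with GENCODE mouse release 21 (GRCm38), counts rounded. In each library 922 of 116945 transcripts had no gene in it and were left out. Genes were tested with edgeR 4.0.16 under R 4.3.3 (quasi-likelihood F-test), with TMM scaling, the filterByExpr filter and Benjamini-Hochberg adjustment over all genes tested, at 0.05. Fits covered the 18 organoid libraries (15427 genes, 12 residual degrees of freedom), the 6 tissue libraries (16753, 3) and tissue with the 9 organoid libraries with DHT (17626, 9), for 17 comparisons. The expected counts come with sampling error that grows as depth falls; depth was 11965815 to 58445041. Intervals of 2 standard errors include the spread between libraries; the floor of 3 reads covers counting error only.

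Alternatives were DESeq2 1.42.0, its size factors, no filter, a filter of over 1 CPM, a length offset, the replicate block, fewer libraries and the mitochondrial share as a covariate. The fits were tested on simulated data. The members and lists were chosen with earlier results of these data known. Named are all members, up to 3 called genes of lowest p per pathway list and kind of comparison, and the 3 genes most like each member (for Egfr, 1 of them is not reported here); other genes named were chosen after their values were seen.

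Replicate numbers were checked for pairing by the correlation of deviations from group means. Among the groups compared, all 3 correlations were over 0.1 for KO and HET without DHT alone (0.613, 0.231 and 0.691), which rests on the data, not on the labels. KO without DHT and WT with DHT, which differ in label and medium and were not compared, also had all 3 over 0.1 (0.314, 0.122 and 0.137). This measure does not by itself show pairing. The blocked values are given beside KO against HET without DHT.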

Additional observations from a re-analysis of the deposited data

How the results depend on the processing

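The 8 lower and 2 higher members of tissue against organoids were called under every alternative that kept all libraries or left out tissue WT 2 and HET 1, and 9 to 10 were called when each library was left out. In organoids the counts of members called are small, so a change of 1 gene changes them. On averaged withdrawal the count of 1 became 2 with DESeq2 or the mitochondrial covariate and 0 without the low-count filter or with the length offset. For withdrawal in KO it became 1 with DESeq2 or the covariate. For HET against WT with DHT it became 3 with DESeq2 or the filter of over 1 CPM, 2 without the 3 organoid libraries of fewest reads, 4 with the covariate, and 0 with the length offset or the compared groups alone. For KO against WT with DHT it became 2 with DESeq2, 3 with the covariate, and 0 without the filter or with the length offset. KO against HET with DHT gave 1 with DESeq2 or the covariate. Without DHT, HET against WT gave 2 with the covariate and 0 with the compared groups alone, and KO against WT gave 2 without the 3 libraries of fewest reads or with the covariate and 0 with the compared groups alone. With the covariate 17.7% (HET) and 8.95% (KO) of all genes passed against WT with DHT, where 7.51% and 4.11% did in the main fit. Without DHT 14.8% and 10.7% passed, where 7.81% and 4.8% did. For most other alternatives the share over all genes is not given, so these counts are no result about the members. The cause of the changed counts was not tested, beyond that no filter tests more genes and the compared groups alone have fewer libraries.

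Leaving out each library in turn gave 0 to 1 members for averaged withdrawal, for KO and HET against WT with DHT, for KO against HET with DHT and for HET against WT without DHT, 1 to 1 for KO against WT without DHT, and 0 to 0 for each single-label withdrawal, the 3 differences, KO against HET without DHT and the 3 tissue comparisons of labels.

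The replicate block raised the count of HET against WT with DHT to 2 and changed no other count in the fits of all libraries. For KO against HET without DHT, the block on those 6 libraries alone raised the count to 6. In tissue, leaving out WT 2 and HET 1 reversed the change of Egf in KO against WT to 1.98, with 1 library left in WT. Of the values of single members, 29 passed the threshold under an alternative only and 30 lost it. Precision is limited by 3 libraries a group in organoids and 2 in tissue, where the SE of Egf between labels was over 1 on the log2 scale.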
